A study of Drosophila melanogaster with 12 samples.

Results

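The glutathione transferases are the enzymes that join glutathione to reactive electrophiles, and 33 of the 9981 genes with a value in every intestine library belonged to this family. Members were taken by name, as every gene whose symbol begins with GstD, GstE, GstO, GstS, GstT or GstZ. The Delta class (GstD) had 11 genes, the Epsilon class (GstE) 12, the Omega class (GstO) 3, the Sigma class (GstS) 1, the Theta class (GstT) 4 and the Zeta class (GstZ) 2.

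RNA was sequenced from dissected intestines of adult Drosophila melanogaster, labelled strain w1118, to compare animals in which the mitochondrial pyruvate carrier was reduced or removed with their controls. The carrier moves pyruvate into mitochondria, and its subunit dMPC1 is listed as Mpc1. In myo1A > dMPC1-RNAi animals (3 libraries) a dMPC1 RNAi transgene was driven in enterocytes, the absorptive cells of the gut, by myo1A-GAL4, and Tub-GAL80ts held it silent until adulthood. The controls, myo1A > mCherry-RNAi (2 libraries), carried the same driver and repressor with an RNAi transgene against mCherry, and in both groups RNAi ran for 7 days from an adult age of 4 to 5 days. The dMPC1 mutants (2 libraries) were transheterozygous for the deletion alleles dMPC1-1 and dMPC1-2 and therefore lacked the gene in every cell. Their control, labelled wild type, carried 2 copies of a chromosome from which the P element had been cleanly removed (precise excision, 1 library), and both groups were 7 to 10 days old. Each RNAi library came from a pool of intestines, which the study calls biological replicates. Nothing in the sources used here says how the mutant replicates were collected, so p-values measure only the spread between these libraries.

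Glutathione transferases act in the second phase of detoxification, after cytochrome P450 enzymes, and their conjugates are then exported from the cell. In insects the Delta and Epsilon classes are large and handle insecticides and products of lipid peroxidation, while the Omega, Sigma, Theta and Zeta classes are shared with vertebrates. Many Delta genes are induced under oxidative or xenobiotic stress by CncC, the fly Nrf2 protein, which Keap1 holds inactive.

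The family sat in a few gene clusters, which matters because close copies can share reads. All 11 Delta genes lay in 1 run on chromosome arm 3R, in the order GstD10, GstD9, GstD1, GstD2 to GstD8 and GstD11, and the 7 genes GstD2 to GstD8 had no intron. On arm 2R, 9 Epsilon genes formed another run from GstE10 to GstE9, and GstE11, GstE12 and GstE13 stood apart on the same arm. The Omega genes were together on 3L, GstZ1 and GstZ2 on 3R, GstT1 and GstT2 on 2R, and GstT4 and GstT3 were at separate places on X. GstE10 and GstE1 overlapped by 20 exon bases on opposite strands, GstE9 overlapped the immune gene imd by 40, GstE12 overlapped CG3894 by 33, GstE13 overlapped CG18659 by 6, GstT2 overlapped CG12926 by 223, and GstO2 overlapped se, another Omega class gene, by 61. The sources used here do not say whether reads that matched more than 1 copy were kept or whether strand was used, so values of single Delta and Epsilon genes, and of the overlapping genes, may hold reads of their neighbours.

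Each library held 7362983 to 21918521 reads in genes and values are normalized counts, the reads of a gene divided by 1 size factor for that library. Mpc1 fell with each genotype. It measured 3114 and 2936 normalized counts in the mCherry-RNAi libraries against 841, 803 and 820 under dMPC1 RNAi, and 1997 in the precise excision library against 5.31 and 13.7 in the mutants. All 8 enterocyte markers were present in every library. Their summed level was 532217 to 543965 in mCherry-RNAi, 264524 to 373007 in dMPC1-RNAi, 541151 in precise excision and 256945 to 338633 in mutant libraries, and most of it was the protease Jon65Aiv (422473 and 424195, 200756 to 314860, 391068, and 178198 and 228954). The other markers split under dMPC1 RNAi. Jon99Ciii was 0.272 times, thetaTry 0.494, lab 0.777, Amy-p 0.926 and Myo31DF 0.933 times its control level. In contrast mex1, a brush border gene, was 1.25 times and nub, an enterocyte factor, 1.44 times its control level. No enterocyte, progenitor, enteroendocrine, Malpighian tubule, visceral muscle or hemocyte marker found in the files was at 0 in any library, and 1 fat body marker was at 0 in both mCherry-RNAi libraries. Summed progenitor markers (6 genes) were 697 to 769 in mCherry-RNAi, 1630 to 1677 in dMPC1-RNAi, 1332 in precise excision and 768 to 1170 in mutant libraries. Fat body markers (4 genes) were 22602 to 30255, 8106 to 11426, 42742 and 8620 to 9698 in the same order of groups. Nearly all of that sum was the yolk protein genes Yp1, Yp2 and Yp3. The other fat body marker, Lsp2, went the other way, at 0 in mCherry-RNAi and 5.49 to 8.64 in dMPC1-RNAi libraries. Lsp2 was 8.61 in precise excision and 56.9 and 82.1 in mutant libraries. Malpighian tubule markers (5 genes) were 24026 to 27151, 16465 to 20755, 26205 and 24959 to 34413 in that order of groups. Enteroendocrine markers (8 genes) were 4337 to 4401, 5674 to 6222, 3329 and 2901 to 3895, visceral muscle markers (8 genes) 16474 to 18093, 13344 to 14221, 25656 and 13946 to 14013, and hemocyte markers (5 genes) 169 to 370, 151 to 213, 1187 and 315 to 482. In bulk RNA, fewer cells of a type and less RNA per cell cannot be told apart, and the part of these shifts in the results on glutathione transferases was not tested.

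All 33 genes had at least 1 read in all 8 libraries, but a few carried most of the signal. Per kilobase of exon, GstD1, the best known Delta enzyme and able to act on DDT, was the highest member in every group, at 5458 normalized counts per kilobase in mCherry-RNAi, 8473 in dMPC1-RNAi, 12634 in precise excision and 20431 in mutant intestines. GstE12 (3885, 2957, 3478 and 4454) and GstT4 (3781, 2044, 2576 and 4482) were the highest genes of the Epsilon and Theta classes over the groups. GstO3, GstS1 and GstZ1 led the Omega, Sigma and Zeta classes. At the other end GstD6 reached at most 23.1, GstZ2 at most 21.8 and GstE2 at most 18.3 per kilobase in any group.

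The whole family made up 0.169% and 0.176% of the reads in mCherry-RNAi intestines, 0.221% to 0.264% under dMPC1 RNAi, 0.288% in precise excision and 0.438% to 0.465% in mutant intestines. On the scale of summed normalized counts this was 26461 to 26878, 27090 to 31696, 39507 and 54182 to 55179, so the sums of the 2 control genotypes differed from each other more than the RNAi libraries differed from their own control. The classes did not keep their proportions. The Delta class held 18.3% to 20.1% of the family's summed counts in mCherry-RNAi, 28.1% to 32.6% in dMPC1-RNAi, 34.7% in precise excision and 33.6% to 40.5% in mutant libraries. The Theta class held 21.7% to 21.9%, 9.63% to 18.0%, 10.5% and 10.7% to 12.9%.

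**Figure D1:**
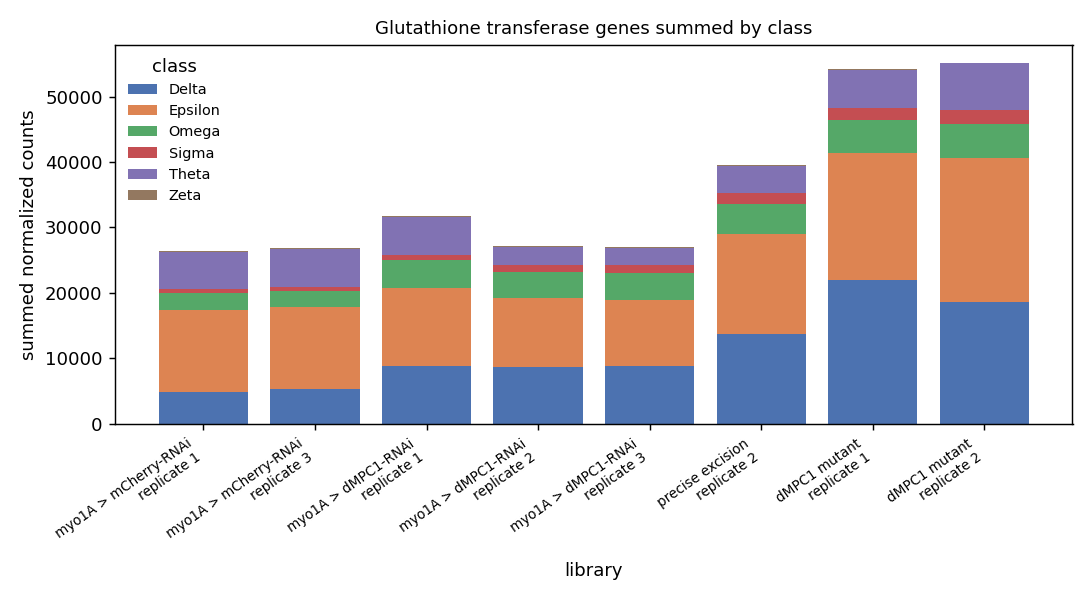
Summed normalized counts of the 33 glutathione transferase genes in each of the 8 libraries, with 1 stacked bar per library and colours for the 6 classes. The mutant bars reach 54182 and 55179 against 39507 in precise excision, and the Delta segment is 4846 and 5397 in the mCherry-RNAi bars against 8717 to 8910 in the dMPC1-RNAi bars.

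The first comparison asked how the family changed when dMPC1 was knocked down in enterocytes, and the Delta cluster moved up nearly as a block. Across the family 9 genes rose, GstD1, GstD2, GstD3, GstD5, GstD8, GstD9, GstD10, GstE1 and GstO3, by 1.55-fold (GstD1) to 16.4-fold (GstD2). GstE9 fell to 0.527 times its control level. Calls came from limma on log2(normalized count + 1), where the added 1 shrinks the fold of weakly expressed genes, and needed both an adjusted p no higher than 0.01 and a change of 0.6 or more, up or down, in log2 units. Of all 8921 genes tested, 7.03% were called higher and 6.71% lower, against 9 and 1 of the 31 members that passed the filter of a mean of 10. GstD4 and GstD6 did not pass it. GstD2 and GstD3 passed with a control mean under 10, and with no filter 9 members rose and 1 fell among all 33. The median log2 fold change of the 31 members was 0.28, beside -0.01 for all genes tested.

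By class, 7 of 9 tested Delta genes rose and none fell in limma, edgeR or DESeq2 (0 lower at an unadjusted p under 0.05), and the median Delta log2 fold change was 1.54. The 12 Epsilon genes split, with 1 higher, 1 lower and a median of -0.02, or 0.32 with total-read scaling, which moved the median of all genes to 0.34. Of the 3 Omega genes 1 rose, and no Sigma, Theta or Zeta gene was called by limma or edgeR, with GstS1 and GstT1 higher at an unadjusted p under 0.05. DESeq2 called GstS1 higher. In the other 21 members the change missed the threshold. For 19 of the 33 members all dMPC1-RNAi values exceeded both control values, and for 5 they were all under them, where 29.5% and 30.3% of all 9981 genes did so. Those 19 included GstD1 to GstD10, all Delta genes but GstD11.

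GstD2 had the widest change, from 5.48 and 7.28 normalized counts (5 and 7 reads) in the mCherry-RNAi libraries to 83.2, 104 and 127 under dMPC1 RNAi. Its log2 fold change was 3.83 (SE 0.26, limma adjusted p = 0.0002). GstD8 went from 26.3 and 32.2 to 251, 139 and 109 (log2 fold change 2.39, SE 0.34, adjusted p = 0.0032), with dMPC1-RNAi replicate 1 well above the other two. These are both intronless genes of the GstD2 to GstD8 stretch, and neither showed overlap between the groups.

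GstD9 measured 210 and 251 in the controls against 880, 871 and 877 in the dMPC1-RNAi libraries (log2 fold change 1.93, SE 0.10, adjusted p = 0.0001). GstD5 measured 69.0 and 66.5 against 182, 214 and 201 (log2 fold change 1.54, SE 0.13, adjusted p = 0.0005). GstD3 measured 6.58 and 12.5 against 32.0, 34.6 and 37.6 (log2 fold change 1.82, SE 0.33, adjusted p = 0.0080). All 3 genes separated the groups without overlap, GstD3 at a depth of 6 and 12 reads in the controls.

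GstD10 rose from 119 and 122 to 207, 252 and 220 (log2 fold change 0.90, SE 0.12, adjusted p = 0.0028). It was not called in a limma fit of all libraries together, which takes the spread from the mutant libraries too (adjusted p = 0.065). GstD1 rose from 4353 and 4849 to 7212, 7024 and 7193 (log2 fold change 0.64, SE 0.08, adjusted p = 0.0023). Its fold was the smallest of the called Delta genes, but it added more normalized counts than all other Delta genes together. GstD4, which was below the filter, had 2.19 and 1.04 against 9.15, 7.68 and 8.17, and GstD6 stayed at 1.04 to 2.74 in all 5 libraries, under the 3-read floor of 2.45 to 3.29 in 4 of them. GstD7 had 25.2 and 22.9 against 41.2, 46.1 and 28.6 (adjusted p = 0.11), with no overlap. GstD11, at the far end of the run and with introns, was the only Delta gene whose RNAi libraries all lay below the controls, at 27.4 and 32.2 against 11.0, 23.0 and 18.0 (adjusted p = 0.13).

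**Figure D2:**
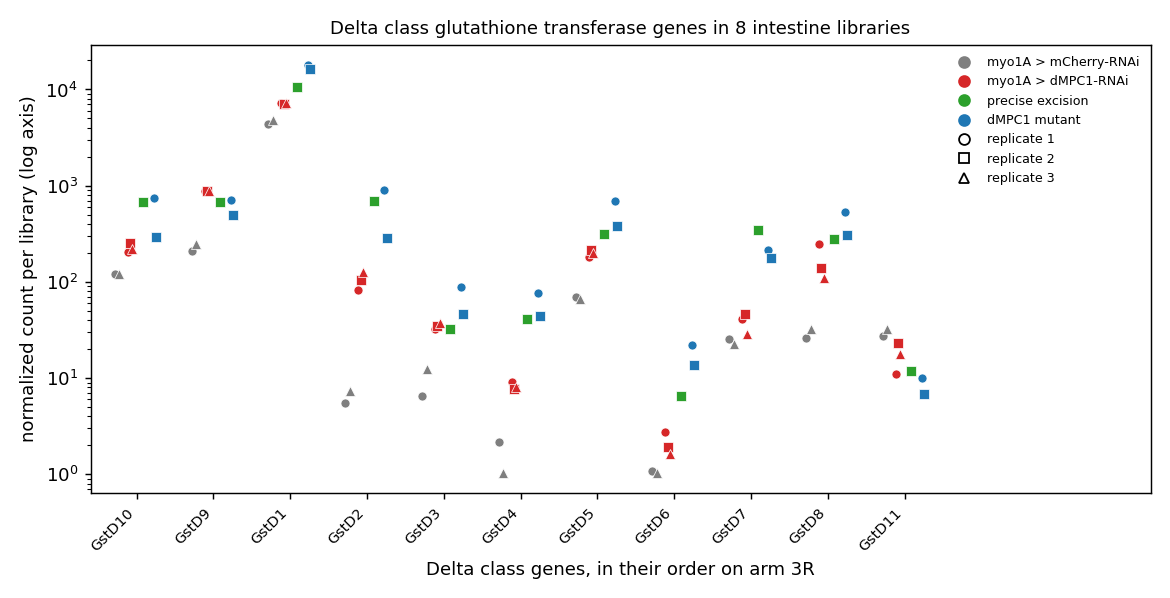
Normalized counts of the 11 Delta class genes in every library, on a log axis, in the order of the genes along arm 3R, with colours for the 4 groups and symbols for replicate numbers. For GstD1 to GstD10 all dMPC1-RNAi points (red) lie above the mCherry-RNAi points (grey), while mutant points (blue) and the precise excision point (green) mix for GstD2, GstD9 and GstD10.

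Outside the Delta class, GstO3 had the clearest change. Omega enzymes carry a cysteine in the active site and act more in thiol exchange than in conjugation. GstO3 measured 1453 and 1494 in the controls against 2843, 2646 and 2971 under dMPC1 RNAi, a 1.91-fold rise (log2 fold change 0.93, SE 0.08, limma adjusted p = 0.0006). Its neighbours GstO2 and GstO1 had log2 fold changes of 0.35 (adjusted p = 0.053) and 0.21 (adjusted p = 0.28).

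Among the Epsilon genes, which act on lipid peroxidation products such as 4-hydroxynonenal, 2 genes of the 2R run went opposite ways, GstE1 near one end and GstE9 at the other. GstE1 rose from 282 and 265 to 398, 473 and 520 (log2 fold change 0.75, SE 0.13, adjusted p = 0.0066). GstE9 fell from 1266 and 1169 to 806, 600 and 518 (log2 fold change -0.95, SE 0.18, adjusted p = 0.0093). Neither gene had overlapping groups. GstE2, GstE3 and GstE5 to GstE8 between them were all uncalled, with log2 fold changes of -0.33 (GstE3) to 0.40 (GstE7). GstE4 was not among the members and was not tested. GstE6 had 1304 and 1289 against 1538, 1489 and 1199, so its groups overlapped. GstE12, the most abundant Epsilon gene, had 5453 and 5409 against 4402, 3985 and 4013, every library lower, but its log2 fold change of -0.40 was under the fold threshold (adjusted p = 0.013).

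GstS1, the Sigma enzyme, which is abundant in flight muscle and conjugates 4-hydroxynonenal, measured 589 and 573 in the controls and 774, 1147 and 1246 under dMPC1 RNAi (log2 fold change 0.83, SE 0.20, adjusted p = 0.020). GstT4 measured 4605 and 4620 against 4565, 1514 and 1401 (log2 fold change -1.11, SE 0.48, adjusted p = 0.12). For both genes dMPC1-RNAi replicate 1 was the library nearest the controls. Without it the log2 fold change was 1.04 for GstS1 and -1.66 for GstT4, and both passed the thresholds. Since the library is singled out here by these same values, those calls are no separate support for a change. That library also had a summed level of 5 egg chamber germline genes (yl, osk, nos, bcd and otu) of 343 normalized counts, against 14.6 to 28.8 in the other RNAi and mCherry-RNAi libraries. The part of that difference in GstT4 and GstS1 was not tested. GstZ1, a relative of the maleylacetoacetate isomerase that acts in tyrosine breakdown, had 122 and 135 against 112, 151 and 132, with overlapping groups.

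**Figure D3:**
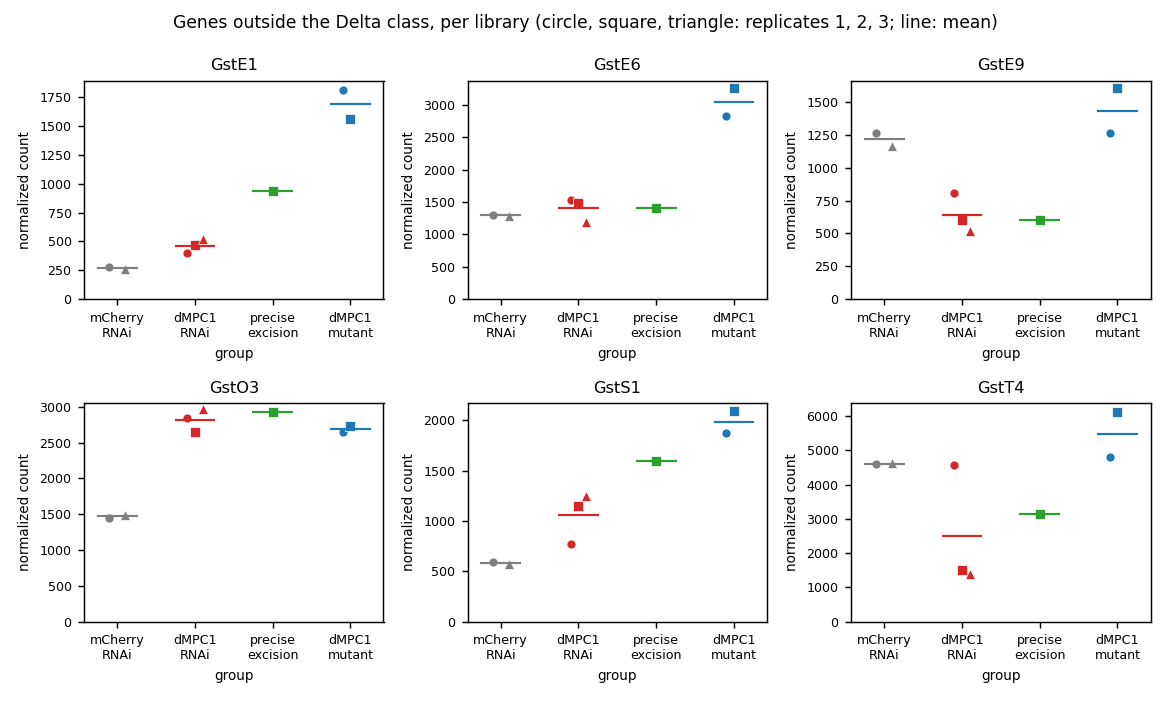
Normalized counts of 6 genes outside the Delta class in each library, with a line at the group mean and axes that start at 0. GstO3 and GstE1 rise under dMPC1 RNAi, GstE9 falls, and for GstT4 the replicate 1 point at 4565 stands with the controls, apart from 1514 and 1401.

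The count of called members depended on which libraries were in the fit. Without mCherry-RNAi replicate 1, and likewise without mCherry-RNAi replicate 3, only 3 members rose (GstD2, GstD5 and GstD9) and none fell, at 128 and 202 genes higher among all genes in place of 627. Without dMPC1-RNAi replicate 2 there were 4 (the same 3 and GstO3), and without dMPC1-RNAi replicate 3 there were 5 (those 4 and GstD8). Without dMPC1-RNAi replicate 1 there were 10 higher and 2 lower. The calls among all genes moved widely between these fits too, over the range given below for leaving out 1 library. The counts are therefore not a result about the members alone. When libraries were scaled to their total reads in genes, the median log2 fold change of all genes moved to 0.34 and 86.4% of all calls were increases, against 51.1% with the deposited size factors. On that scale 14 members rose, the median of the family was 0.62, and GstE9 was no longer called (log2 fold change -0.60, adjusted p = 0.034).

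The second comparison asked the same of the whole-animal mutants, and there single Delta genes went different ways. Against a single control library, limma called GstE6 and GstE9, 2 Epsilon genes of the 2R run, higher and no member lower, among 32 members tested (GstD11 did not pass the filter). Across all 8794 genes tested 1.31% were called higher and 2.39% lower. At an unadjusted p under 0.05, 9 members were higher and 2 lower, where 11.3% and 12.4% of all genes were, and no member fell with edgeR or DESeq2 either. The median log2 fold change was 0.33 over the members and 0.01 over all genes. With 1 precise excision library the spread came from the 2 mutant libraries alone, and that library was assumed to vary like them.

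GstE6 measured 1406 in precise excision and 2830 and 3267 in the mutants, a 2.17-fold rise (log2 fold change 1.11, SE 0.14, limma adjusted p = 0.0044). GstE9 measured 603 against 1265 and 1606, a 2.38-fold rise (log2 fold change 1.24, SE 0.17, adjusted p = 0.0052). Both mutant libraries lay above the control for each gene, and so they did for GstE8 (434 against 734 and 895, adjusted p = 0.015) and GstE1 (940 against 1812 and 1562, adjusted p = 0.013). The GstE6 and GstE9 calls were lost with edgeR, with recomputed TMM factors and with no filter on low genes. In a fit of all libraries together, which takes the spread from the RNAi groups too, GstE6 was called and GstE9 was not. Without either mutant library that fit called neither, with the lone mutant library assumed to vary like the RNAi groups. DESeq2 called GstD1, GstE1, GstE6, GstE9 and GstT4 higher.

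No Delta gene was called in the mutants out of 10 tested, with 2 higher and 1 lower at an unadjusted p under 0.05. The same test by edgeR called none, and DESeq2 called GstD1 higher. The median Delta log2 fold change was 0.51, with 6 genes above 0 and 4 below, beside 0.01 for all genes tested. The Delta class summed to 13729 normalized counts in precise excision and to 18547 and 21946 in the mutants, most of it GstD1. GstD1 measured 10650 in precise excision against 17950 and 16496 (log2 fold change 0.69, SE 0.17, limma adjusted p = 0.0499), a fold of 1.62 beside 1.55 under RNAi. GstD2 measured 691 against 894 and 287, GstD9 680 against 712 and 493, and GstD10 676 against 748 and 296. In all 3 the control value lay between the mutant libraries. GstD3 (32.3 against 89.3 and 46.2), GstD5 (314 against 699 and 381) and GstD8 (280 against 528 and 306) had both mutants above the control, with adjusted p of 0.21, 0.22 and 0.33. GstD7, at 346 against 216 and 176, lay below it (adjusted p = 0.035).

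GstO3 measured 2925 in precise excision and 2642 and 2727 in the mutants (log2 fold change -0.12, adjusted p = 0.63). GstT4 measured 3143 against 4801 and 6135 (0.79, adjusted p = 0.036), GstE12 4862 against 5625 and 6829, GstS1 1595 against 1875 and 2092, and GstZ1 74.2 against 71.7 and 44.5. None of these 5 genes was called by limma, and GstT4 was called by DESeq2 (adjusted p = 0.0080). Scaled to total reads, where the median of all genes moved to 0.18 and increases made up 58.8% of calls against 35.4%, 7 members were called higher and none lower.

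**Figure D4:**
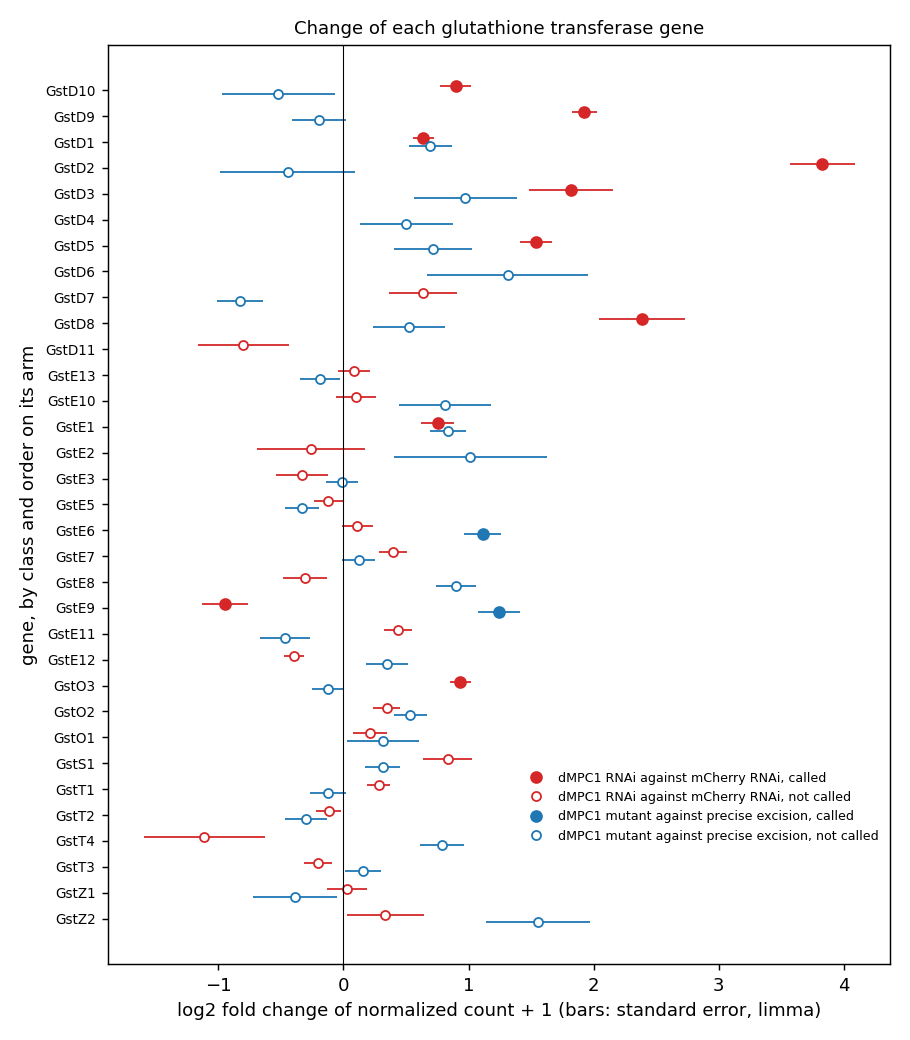
Log2 fold change of each member on the log2(normalized count + 1) scale, with its standard error from limma, for dMPC1 RNAi against mCherry RNAi (red) and dMPC1 mutant against precise excision (blue), with filled points for called genes and no point for a member below the filter. The filled red points gather in the Delta class, and GstE9 is filled at -0.95 and 1.24 in opposite directions.

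The difference between the comparisons was tested directly, as the RNAi log2 fold change minus the mutant log2 fold change in a fit of all 8 libraries, with calls at adjusted p values up to 0.01. The difference was above 0 for GstD2 (4.27, SE 0.71, limma adjusted p = 0.0061), GstD9 (2.13, SE 0.26, adjusted p = 0.0021) and GstO3 (1.06, SE 0.13, adjusted p = 0.0023). It was below 0 for GstE9 (-2.19, SE 0.31, adjusted p = 0.0035), the gene called in opposite directions in the 2 comparisons. Of 8916 genes tested, 4.78% differed above 0 and 3.94% below. With limma the difference was not called for the other 28 members tested, among them GstD1 (-0.06, SE 0.15, adjusted p = 0.83) and GstE1 (-0.09, SE 0.22, adjusted p = 0.81), which measured higher in both comparisons, and GstE6 (adjusted p = 0.013). Without mCherry-RNAi replicate 1 none of the 4 was called, without mCherry-RNAi replicate 3 only GstD9 was, and without dMPC1-RNAi replicate 2 GstD9 and GstO3 were. Without dMPC1-RNAi replicate 3, and with edgeR, GstD2 was not called. DESeq2 called these 4 genes, GstD8 above 0, and GstE6, GstE8 and GstE12 below 0. Without dMPC1-RNAi replicate 1 the calls below 0 rose from 1 to 5 (GstE6, GstE8, GstE9, GstE12 and GstT4), and without mutant replicate 2 GstE9 was not called.

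The control genotypes themselves differed in this family. The 2 tables lay on one scale, since the median gene deviated by 0.00 to 0.01 (log2) from its mean over the 8 libraries in each library. GstD2 in the precise excision library was 108 times its mean in the mCherry-RNAi libraries, GstD4 at least 12.8 times (against 3 reads per mCherry-RNAi library, since it had 2 and 1), GstD7 14.4 times, GstD8 9.56 times and GstD10 5.61 times. For GstD9 the ratio was 2.95 and for GstO3 1.98, and both then stood in precise excision at about the level of the dMPC1-RNAi intestines or below it (680 against 871 to 880, and 2925 against 2646 to 2971). GstE9 went the other way, at 0.495 of the mCherry-RNAi mean. These groups differ in genotype, GAL4 driver, age and the warming by which RNAi held back by GAL80ts is switched on, which cannot be told apart here, and 1 precise excision library gives no spread.

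The genes around the family in glutathione metabolism were mostly uncalled while the Delta cluster rose. A list for glutathione synthesis, use and conjugate export had 13 entries, of which 10 matched a gene by name. Under dMPC1 RNAi none of these 10 rose and 2 fell with limma, edgeR and DESeq2. With limma 7.03% of all genes were called higher and 6.71% lower. At an unadjusted p under 0.05 in limma 1 of the 10 was higher and 3 were lower, as were 21.8% and 24.1% of all genes. The list median was -0.03, or 0.31 with total-read scaling, where the median of all genes was 0.34. The 2 that fell were the subunits of glutamate-cysteine ligase, which makes the first step of glutathione synthesis. Gclc, the catalytic subunit, fell from 8795 and 7860 normalized counts to 3829, 3539 and 3250 (log2 fold change -1.24, adjusted p = 0.0005). Gclm, the modifier subunit, fell from 3226 and 3243 to 1548, 1982 and 2008 (log2 fold change -0.82, adjusted p = 0.0044), again with no overlap. The Gclm call was lost without any 1 of mCherry-RNAi replicates 1 and 3 and dMPC1-RNAi replicates 2 and 3 (adjusted p of 0.011 to 0.052) and with total-read scaling (log2 fold change -0.47, adjusted p = 0.018), and the Gclc call without mCherry-RNAi replicate 1 (adjusted p = 0.013). Mgstl, a microsomal glutathione transferase of a separate family, changed by -0.54 on the log2 scale (adjusted p = 0.018), or by -0.20 with total-read scaling. MRP, a conjugate exporter, changed by 0.33 (adjusted p = 0.098). With total-read scaling MRP was called higher (0.67, adjusted p = 0.0079).

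None of the 3 CncC regulators was called by limma, edgeR or DESeq2 under RNAi, with 2 lower at an unadjusted p under 0.05, as were 24.1% of all genes. cnc, which encodes CncC, measured 6500 and 6301 against 4166, 4674 and 4261, a log2 fold change of -0.55 that passed the adjusted p (0.0044) but not the fold threshold. It missed the adjusted p too without dMPC1-RNAi replicate 2 or 3 (limma adjusted p of 0.011 and 0.020) and with a replicate block (0.014). With total-read scaling, where the median of all genes was 0.34, its log2 fold change was -0.21 (adjusted p = 0.074). Keap1 measured 462 and 396 against 324, 296 and 333 (log2 fold change -0.43, adjusted p = 0.027), or -0.09 with total-read scaling. For maf-S, the small Maf partner of CncC, the log2 fold change was 0.06, or -0.05 without dMPC1-RNAi replicate 3 and 0.40 with total-read scaling. Transcript levels do not show the activity of these proteins.

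Other detoxification families gave a mixed picture. Of 12 cytochrome P450 genes, 7 rose and 1 fell under dMPC1 RNAi, where 7.03% and 6.71% of all genes did. These 12 are a part of the P450 family chosen with earlier results of these data known, so they do not give the share for that family. The gene that fell was Cyp4e2, from 2402 and 2267 to 1263, 1216 and 997 (log2 fold change -1.02). Cyp6a23 went from 2269 and 2289 to 10268, 10627 and 9375 (log2 fold change 2.14), Cyp4p1 from 673 and 664 to 2315, 2204 and 2207 (1.74), and Cyp6w1 from 74.5 and 42.6 to 428, 450 and 411 (2.91). Cyp12d1-d, which has a near-identical copy and so may share its reads, had no read in the mCherry-RNAi libraries. It had 22.9, 49.0 and 49.0 normalized counts under dMPC1 RNAi, at least 12.6-fold higher against a floor of 3 reads per library. The precise excision and mutant libraries held no read of it either, so it was seen only in dMPC1-RNAi animals. It passed the filter through those libraries alone, and whether it marks the knockdown or that fly line was not tested. Of 17 UDP-glycosyltransferase genes, 3 rose and 4 fell, with Ugt86Di (2.67) and Ugt37a1 (1.91) higher and Ugt35b (-1.37) and Ugt86Dg (-1.43) lower, all as log2 fold changes. Without mCherry-RNAi replicate 1 these 4 genes and Cyp12d1-d were not called. Without mCherry-RNAi replicate 3 Ugt86Di, Ugt37a1 and Ugt86Dg were not called. Without dMPC1-RNAi replicate 2 Cyp12d1-d and Ugt86Dg were not, and without dMPC1-RNAi replicate 3 Cyp12d1-d was not. In the mutants 1 of the 10 glutathione genes was called, higher (CG17636, a putative gamma-glutamyl transferase, chosen after its value was seen, at 119 in precise excision against 908 and 1095), and the calls were 1 higher and 2 lower of 11 P450 genes and 1 higher and 3 lower of 17 UDP-glycosyltransferase genes, where 1.31% and 2.39% of all genes were.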

How the data were processed

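Intestine RNA-seq libraries were labelled by genotype and replicate, and 8 of 12 labelled libraries were used. The other 4 were not analysed here. The authors sequenced single reads, aligned them to the dm3 genome with Novoalign (per the labels) and used USeq and DESeq. The deposited values are a normalized signal per gene, which came out as whole reads divided by 1 size factor for each library (100% of 9981 values whole within 0.001 of a read), and read counts were recovered from them. Columns with the authors' fold changes and adjusted p-values for their own comparisons were left out. The sources used here do not name the annotation release or the strand setting.

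The main test was limma 3.58.1 with a trend (R 4.3.3) on log2(normalized count + 1), for genes with a mean of at least 10, with Benjamini-Hochberg adjustment over all genes tested and the study's thresholds (adjusted p of at most 0.01, log2 fold change of at least 0.6). The difference between comparisons was an interaction term in a fit of all groups. Alternatives were pseudocounts of 0.5 and 5, no filter, recomputed TMM factors, edgeR 4.0.16 and DESeq2 1.42.0 on recovered reads, a fit of all libraries together, leaving out each replicate, a replicate block, and scaling to total reads, the last added after the data were seen. Fits were tested on simulated data. Replicates of a group differed by more than counting noise (chi-square per degree of freedom of 8.78 or more).

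Values are given for members called in any comparison and for the highest member of each class. Up to 4 genes of each pathway list with the smallest p in the RNAi comparison were named, and Cyp4e2 besides as the P450 gene that fell. Members and lists were chosen with earlier results of these data known. Gene order and exon lengths came from the Ensembl BDGP6 annotation, in which all 33 members matched by identifier. It is not the build of the files, so no coordinates are given. The 3-read floor and all limits from it cover counting error only.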

Additional observations from a re-analysis of the deposited data

Results flagged for a closer look

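For 4 genes the change under enterocyte RNAi differed from the change in the mutants by the direct limma test of the difference (RNAi log2 fold change minus mutant log2 fold change). The differences were 4.274 for GstD2, 2.126 for GstD9, 1.058 for GstO3 and -2.188 for GstE9. GstD2, GstD9 and GstO3 rose under RNAi and were uncalled in the mutants, where the precise excision value lay between the mutant libraries for GstD2 and GstD9 and above both for GstO3. GstE9 fell under RNAi and was called higher in the mutants, against 1 precise excision library and not by edgeR. The precise excision level was 108 times the mCherry-RNAi mean for GstD2, 2.95 times for GstD9, 1.98 times for GstO3 and 0.495 times for GstE9, and the part of these starting levels in the differences was not tested.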

How the results depend on the processing

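The 24 single-gene changes recomputed were all called changes of members in the RNAi, mutant and difference tests, and some uncalled ones. Most were thus picked for being called, and the alternatives drew on the same libraries, so a kept direction is not a separate check. GstE12 under RNAi came nearest to 0, with log2 fold changes of -0.44 to -0.051 over its alternatives. None of the 24 turned its direction under the alternatives run for it. Uncalled values near 0 did so, as the report gives for maf-S and for the Epsilon and glutathione list medians. Of the alternative values for those 24, 246 stayed on the same side of the threshold, 55 lost it and 11 gained it, and the cause was not tested. GstD2, GstD5 and GstD9 were called higher under RNAi in every fit run. With 1 to 3 libraries a group, the spread between libraries limits which changes can be called, and the mutant comparison rests on 1 control library.

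Members called in the RNAi comparison (9 higher, 1 lower) became 14 and 0 with total-read scaling (all genes 1724 and 272 in place of 627 and 599), and edgeR called 0 lower. The fit of all libraries together called 8 members higher and 1 lower (all genes 675 and 658). Leaving out 1 library gave 3 to 10 higher and 0 to 2 lower, and for all genes 128 to 895 higher and 59 to 1040 lower. In the mutant comparison (2 higher, all genes 115 higher and 210 lower) the members higher were 0 with no filter (all genes 0 and 0), 0 with TMM factors (39 and 83), 0 with edgeR (33 and 99), 5 with DESeq2, 7 with total-read scaling (304 higher) and 1 in the fit of all libraries together (47 higher). Leaving out a mutant library, with the spread then taken from the RNAi groups, gave 0 members, and for all genes 18 to 28 higher and 73 to 79 lower. For the difference (3 above 0, 1 below, all genes 426 and 351), DESeq2 gave 4 members below 0 (539 genes), total-read scaling gave 223 genes below 0 and 69.7% of calls above 0 against 54.8%, and leaving out 1 library gave 0 to 4 members above and 0 to 5 below, and 85 to 748 and 36 to 885 genes.

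With a replicate block 5 members were higher in the RNAi comparison (GstD2, GstD5, GstD8, GstD9 and GstO3) and 392 of all genes. Only replicate numbers 1 and 3 are shared by those groups, and same-numbered libraries deviated from their group means with correlations of -0.23 and -0.16 over genes. In a control group of 2 libraries the deviations are mirror images, so the correlations are not separate checks. They cannot decide whether the numbers mark a pairing. No paired analysis was possible for the mutant comparison because the groups share fewer than 2 numbers, nor for the difference.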

Other observations

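The mutant libraries differed from each other in the Delta cluster. Mutant replicate 1 was above mutant replicate 2 for 11 of 11 Delta genes, against 44.9% of all 9981 genes, 6 of 12 Epsilon genes and 0 of 3 Omega genes. The ratio was 3.11 for GstD2, 2.53 for GstD10, 1.93 for GstD3 and 1.83 for GstD5, but 1.09 for GstD1, the member with the most reads. Close copies in this cluster may share reads, so the 11 genes are not 11 separate measurements, and this was noticed in the data and not tested. Replicate 2 was the shallowest library, at 7362983 reads in genes, and replicate 1 the deepest, at 21918521.

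GstZ2, a gene of low level, had 16.1 normalized counts in precise excision and 38.3 and 63.3 in the mutants (log2 fold change 1.55, limma adjusted p = 0.064). Its neighbour GstZ1 did not share the direction (74.2 against 71.7 and 44.5). GstE5 and GstE7, neighbours of GstE6, stood at 1403 and 1486 in precise excision against 335 to 376 and 583 to 594 in mCherry-RNAi, while GstE6 stood at 1406 against 1289 to 1304.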
